A study of Mus musculus with 8 samples.

Results

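The liver stores glucose as glycogen, and the 8 genes described here code for enzymes and regulatory subunits that build glycogen or take it apart: *Ugp2*, *Gys2*, *Gbe1*, *Pygl*, *Phka2*, *Ppp1r3b*, *Ppp1r3c* and *Ppp1r3g*. They were chosen by gene symbol with earlier results of these data known, so the share of them called is a description. All 8 were found among the 16540 genes of the count table. All 8 also passed a filter on low counts, which left 12307 genes for testing.

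The study asked how isoginkgetin (ISOGK), a plant biflavonoid examined as an inhibitor of ATP citrate lyase, changes the liver in a mouse model of atherosclerosis. Liver RNA was sequenced from 4 mice given vehicle and 4 mice given ISOGK by intraperitoneal injection at 20 mg/kg per day for 8 weeks. All mice were male, were fed a Western diet and carried the *Apoe*-/- genotype, which raises plasma cholesterol, so neither group has normal lipid handling. The columns of the vehicle group are named for the solvent DMSO, and the age of the mice, their feeding state and the hour at which livers were taken are not given in the sources used here. *Apoe* itself had 3252 to 4963 counts with vehicle and 3598 to 6489 with ISOGK, so the genotype rests on the labels. Total counts ran from 19605286 to 24461854 per library with vehicle and from 17457106 to 21626399 with ISOGK. The labels name the libraries as separate samples of a group but do not describe the collection of each animal, and the p-values measure the spread between these libraries.

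Glycogen synthesis starts from UDP-glucose, which UDP-glucose pyrophosphorylase makes from glucose 1-phosphate; glycogen synthase then lengthens the chains and the branching enzyme adds branch points. Breakdown is carried out by glycogen phosphorylase, which phosphorylase kinase switches on, while protein phosphatase 1 reverses that switch when glycogen-targeting subunits bring it to the particle. In the liver this cycle takes up glucose after meals and returns it to the blood between them.

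Transcripts of 3 of the 8 glycogen genes were lower in livers of ISOGK-treated mice, and none of the 8 passed the test in the other direction. *Pygl* and *Ugp2*, the phosphorylase and the enzyme that supplies UDP-glucose, fell by 36.3% and by 43.9%, and *Gbe1*, the branching enzyme, fell by 30.8%. *Gys2*, the liver glycogen synthase, did not pass the test, nor did *Phka2*, *Ppp1r3b*, *Ppp1r3c* or *Ppp1r3g*. A gene was counted as changed at an adjusted p under 0.05 in edgeR's quasi-likelihood test (Benjamini-Hochberg adjustment over all 12307 genes), which 7.55% of all tested genes reached in either direction, 3.44% of them lower and 4.11% higher with ISOGK. The vehicle and ISOGK libraries did not overlap for these 3 genes, against 15.3% of all tested genes. With an absolute log2 fold change over 1 added as a condition, 1.63% of all tested genes were called and 0 of the 8 glycogen genes. The median log2 fold change was -0.38 over the 8 genes and 0.0018 over all tested genes.

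The share of all genes called depended on the libraries used: 929 genes passed with all 8 libraries, and 511, 379, 496 and 550 passed without vehicle 1, 2, 3 and 4. Without ISOGK 2 there were 471. *Pygl*, *Ugp2* and *Gbe1* passed in each of these fits. Scaling by library size alone moved the median of all genes to -0.13 and the split of called genes from 506 higher and 423 lower to 262 higher and 804 lower. Under that scaling, *Pygl*, *Ugp2* and *Gbe1* had log2 fold changes of -0.77, -0.95 and -0.65, still well below the shifted median.

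**Figure D1:**
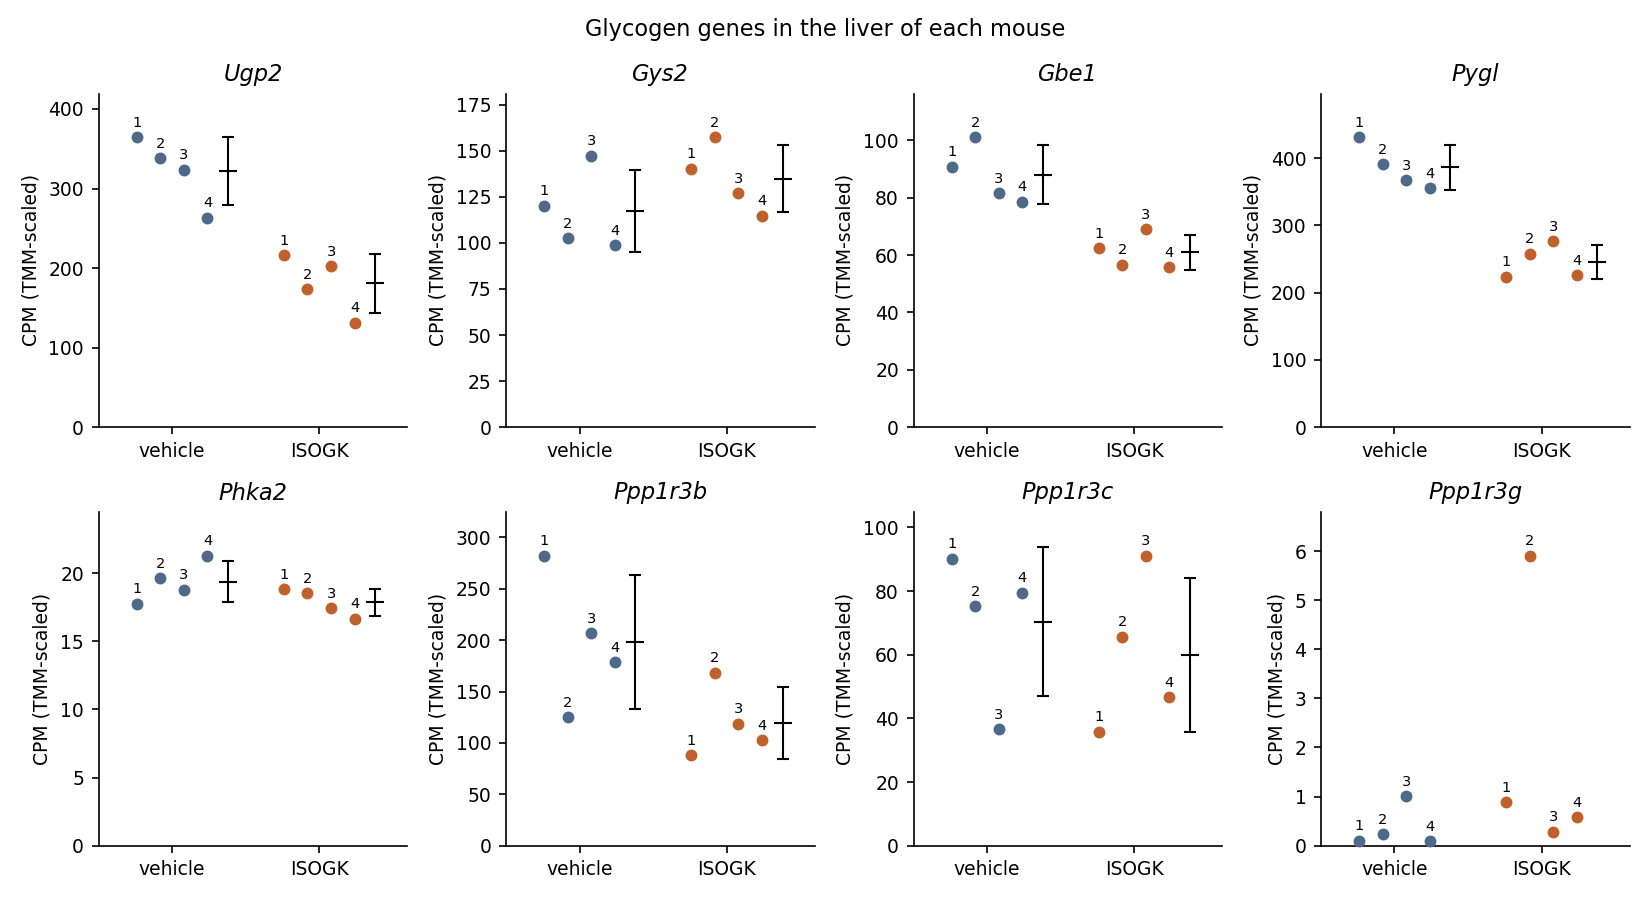
CPM (counts relative to the library total, TMM-scaled) of the 8 glycogen genes in each mouse, numbered by replicate, with the mean and SD of each group of 4 beside the points (no mean is drawn for *Ppp1r3g*, where ISOGK 2 stands far above the rest). The groups are apart for *Ugp2*, *Gbe1* and *Pygl* and overlap for the other genes.

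Among the genes of synthesis, *Ugp2* (chr11:21321138-21371201 in GRCm38, minus strand) changed most. Its level, in CPM, was 365, 338, 323 and 264 in vehicle 1 to 4 and 216, 174, 202 and 131 in ISOGK 1 to 4. Every ISOGK library lay below every vehicle library, and the lowest vehicle value was that of vehicle 4. The group levels were 322 ± 42.9 CPM with vehicle and 181 ± 37.5 CPM with ISOGK (SD, n = 4 each). This gave a log2 fold change of -0.83 with a standard error of 0.15 and an edgeR adjusted p of 0.00805.

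*Gbe1* (chr16:70313949-70569716, plus strand), which makes the branch points, had 90.8, 101, 81.7 and 78.6 CPM in vehicle 1 to 4 and 62.4, 56.7, 68.9 and 55.7 CPM in ISOGK 1 to 4. The groups did not overlap, although ISOGK 3 came close to vehicle 4. *Gbe1* fell from 88.0 ± 10.1 to 60.9 ± 6.08 CPM (SD, n = 4 each), with a log2 fold change of -0.53, a standard error of 0.11 and an edgeR adjusted p of 0.0128.

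*Gys2* (chr6:142422613-142473109, minus strand) codes for the synthase form of the liver. It had 120.3, 103, 147 and 98.8 CPM in vehicle 1 to 4 and 140.3, 157, 127 and 115 CPM in ISOGK 1 to 4. Vehicle 3 was above all but 1 of the ISOGK libraries, and the groups overlapped. The log2 fold change of 0.20 had a 95% confidence interval from -0.10 to 0.50 and an edgeR adjusted p of 0.41. The interval leaves out a fall of the size measured for *Ugp2* or *Gbe1*, but a p above the threshold does not show that *Gys2* was equal in both groups. *Gys1*, the synthase form of muscle and most other tissues, had 1.82 to 2.80 CPM with vehicle and 1.81 to 4.51 CPM with ISOGK, where ISOGK 4 stood above the other libraries. Exons of *Gys1* overlap *Ruvbl2*, a gene of the opposite strand. Of the summed CPM per kb of both synthase genes, *Gys2* held 98.7% ± 0.0491 with vehicle and 98.5% ± 0.860 with ISOGK (SD, n = 4 each).

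On the side of breakdown, *Pygl* (chr12:70190811-70231488, minus strand), the glycogen phosphorylase of the liver, had the smallest adjusted p of the 8 genes. It had 431, 391, 367 and 356 CPM in vehicle 1 to 4 and 224, 258, 276 and 226 CPM in ISOGK 1 to 4. All vehicle libraries were above all ISOGK libraries, and the coefficient of variation was 8.66% with vehicle and 10.4% with ISOGK. *Pygl* fell from 386 ± 33.4 to 246 ± 25.6 CPM (SD, n = 4 each), a log2 fold change of -0.65 with a standard error of 0.11 and an edgeR adjusted p of 0.00424. In bulk tissue, a smaller number of expressing cells and less RNA in each cell cannot be told apart. Non-coding genes of the opposite strand overlap exons of *Pygl*, *Ugp2*, *Ppp1r3b*, *Ppp1r3g* and *Phka2*, and since the strand setting of the counting is not given in the sources used here, their reads could not be separated. For *Pygl*, *Ugp2* and *Gbe1* a two-sided exact permutation test of log2 CPM gave 0.0286, the smallest p that 4 libraries against 4 allow.

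The other phosphorylase genes were low in this tissue. *Pygb*, the brain form, had 6.69 CPM with vehicle and 7.25 CPM with ISOGK on average, and *Pygm*, the muscle form, had 0.779 to 0.989 CPM in vehicle 1 to 3 but 4.69 CPM in vehicle 4. *Pygl* held 98.2% ± 0.654 of the summed CPM per kb of the 3 phosphorylase genes with vehicle and 97.5% ± 0.163 with ISOGK (SD, n = 4 each). The log2 fold change of *Pygm* was -1.08 with all libraries and -0.03 without vehicle 4, with edgeR adjusted p of 0.323 and 0.972.

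*Phka2* (chrX:160502166-160598878, plus strand), the liver form of the regulatory alpha subunit of phosphorylase kinase, showed the least spread of the 8 genes. It had 17.8, 19.7, 18.8 and 21.3 CPM in vehicle 1 to 4 and 18.8, 18.5, 17.4 and 16.7 CPM in ISOGK 1 to 4. The groups overlapped, and the log2 fold change of -0.12 had a 95% confidence interval from -0.33 to 0.10 (edgeR adjusted p = 0.504). Among the remaining subunits of this kinase 3 of 4 were tested and 0 passed, with a median log2 fold change of -0.20. *Phkb*, the beta subunit, was at -0.46 on the log2 scale (edgeR adjusted p = 0.101), and *Phkg2*, the catalytic gamma subunit of liver, was at 0.48 (edgeR adjusted p = 0.0740). *Phkg2* passed in 2 of 17 alternative fits and *Phkb* in 0. *Phka1*, the alpha subunit of muscle, had -0.20 (edgeR adjusted p = 0.429), and *Phkg1*, the gamma subunit of muscle, was too low to be tested.

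*Ppp1r3b*, *Ppp1r3c* and *Ppp1r3g* code for subunits that hold protein phosphatase 1 on glycogen, and their levels varied widely between mice of the same group, with coefficients of variation of 29.1% to 40.5% for *Ppp1r3b* and *Ppp1r3c*. *Ppp1r3b* (chr8:35375739-35388139, plus strand) had 282, 125, 207 and 178 CPM in vehicle 1 to 4 and 88.2, 168, 119 and 103 CPM in ISOGK 1 to 4. Vehicle 2 was below ISOGK 2, so the groups overlapped, although 3 of 4 ISOGK libraries lay below all vehicle libraries. Its log2 fold change of -0.73 was close in size to those of *Pygl* and *Ugp2*, but the standard error was 0.27 and the edgeR adjusted p 0.138. The Wald test of DESeq2 gave -0.74 and an adjusted p of 0.0261, and over all 17 alternatives the adjusted p ran from 0.0261 to 0.319.

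*Ppp1r3c* (chr19:36731731-36736653, minus strand) had 90.2, 75.3, 36.6 and 79.5 CPM in vehicle 1 to 4 and 35.9, 65.7, 91.1 and 46.6 CPM in ISOGK 1 to 4. Low and high libraries were found in both groups, with a log2 fold change of -0.23 and an edgeR adjusted p of 0.741. *Ppp1r3g* (chr13:35958839-35970388, plus strand) was near the floor of detection, with counts of 2, 6, 26 and 2 in vehicle 1 to 4 and 18, 112, 5 and 11 in ISOGK 1 to 4. ISOGK 2 alone carried most of the ISOGK counts. Between groups the log2 fold change was 2.33, its standard error 1.12 and the edgeR adjusted p 0.252, and the log2 fold change was 0.64 without ISOGK 2 and 3.65 without vehicle 3. Of the phosphatase catalytic subunits and the remaining glycogen-targeting subunits, 5 of 7 were tested and 0 passed, with a median log2 fold change of 0.07. *Ppp1cc*, *Ppp1cb* and *Ppp1r3e*, those with the smallest adjusted p, had log2 fold changes of 0.20, 0.09 and -0.46 (edgeR adjusted p of 0.261, 0.664 and 0.299).

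**Figure D2:**
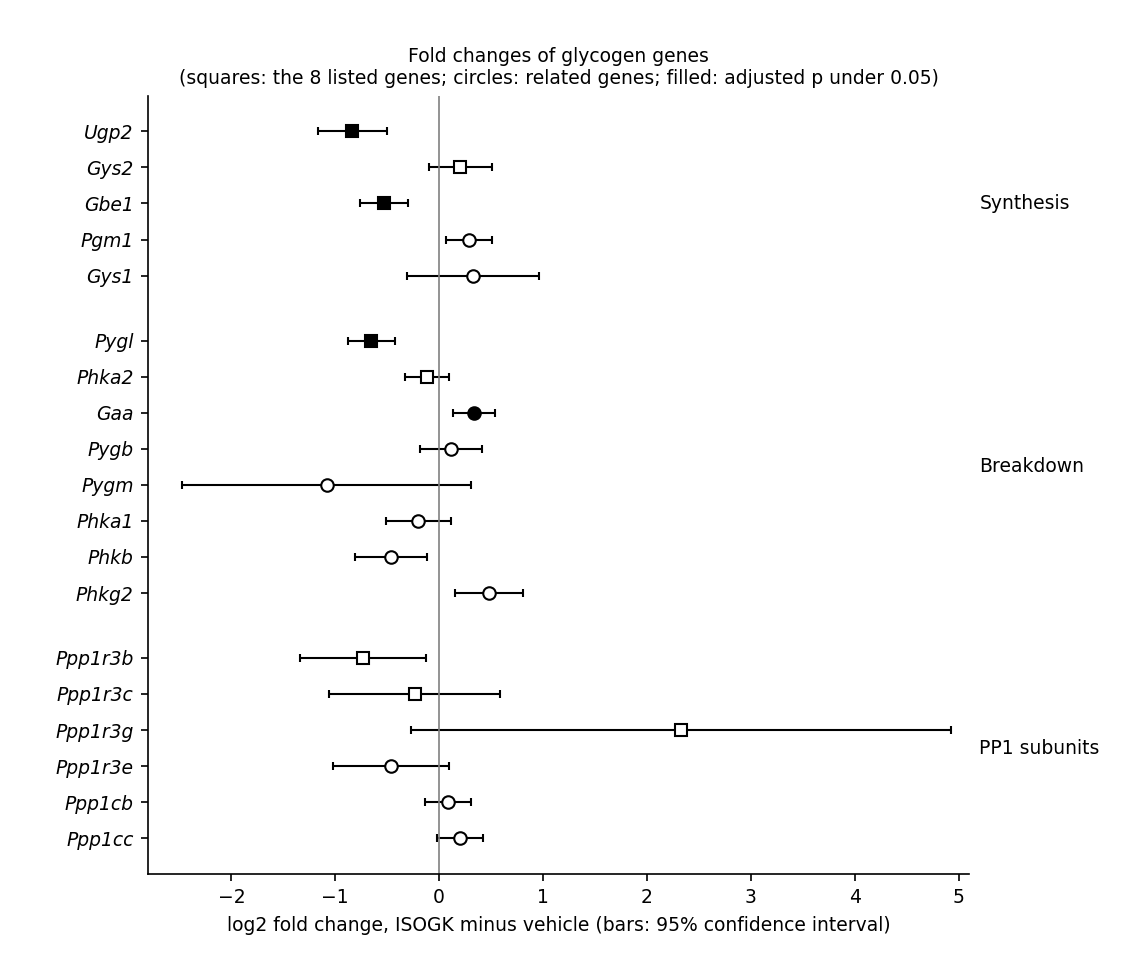
The log2 fold change (ISOGK minus vehicle, 4 mice each) of the 8 glycogen genes (squares) and of related genes (circles), with 95% confidence intervals from edgeR and filled symbols at an adjusted p under 0.05. Filled symbols lie below 0 for *Ugp2*, *Gbe1* and *Pygl* and above it for *Gaa*. The intervals, which are not adjusted for the number of genes, also leave out 0 for *Ppp1r3b*, *Phkb*, *Phkg2* and *Pgm1*, and that of *Ppp1r3g* is the widest.

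Levels of different genes were compared as CPM per kb of the longest coding transcript in GENCODE M21. The order of the genes depends on this choice of length, above all for *Pygl*, whose longest coding transcript has 2992 bases while all its annotated exons cover 6895, against 2683 and 3069 for *Ugp2*. By the longest coding transcript, *Pygl* with vehicle had 129 ± 11.2 CPM per kb and *Ugp2* 120.2 ± 16.0, a pair within its spread. *Ppp1r3b* (45.2 ± 14.95) and *Gys2* (44.1 ± 8.35) were also within their spread, followed by *Gbe1* (26.7 ± 3.07) and *Ppp1r3c* (25.8 ± 8.58) (SD, n = 4). Far below them were *Phka2* at 4.47 ± 0.345 CPM per kb and *Ppp1r3g* at 0.151 ± 0.184. With ISOGK, *Pygl* (82.2 ± 8.54) and *Ugp2* (67.4 ± 14.0) were again highest by this length, followed by *Gys2* at 50.8 ± 6.89 CPM per kb. *Ppp1r3b*, *Ppp1r3c* and *Gbe1* followed at 27.2 ± 7.94, 21.95 ± 8.90 and 18.4 ± 1.84 CPM per kb, and *Phka2* and *Ppp1r3g* were again lowest at 4.11 ± 0.231 and 0.801 ± 1.12.

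Set against phosphorylase within the same mouse, the synthase transcript was higher with ISOGK. The ratio of *Gys2* to *Pygl*, in CPM per kb, was 0.314, 0.296, 0.452 and 0.313 in vehicle 1 to 4 and 0.707, 0.688, 0.518 and 0.571 in ISOGK 1 to 4. The groups did not overlap, and the mean ratio was 1.81 times as high with ISOGK. Of the pair, *Pygl* passed the test and *Gys2* did not. Whether *Gys2* lies below or above *Pygl* depends on the length used. With all annotated exons of each gene in place of the longest coding transcript, the mean ratio was 0.792 with vehicle and 1.43 with ISOGK, where *Gys2* was above *Pygl* in all 4 libraries, and the 1.81 times between groups was the same. The ratio of *Gbe1* to *Pygl* was 0.207 ± 0.0191 with vehicle and 0.225 ± 0.0219 with ISOGK (SD, n = 4 each), and that of *Ugp2* to *Pygl* was 0.929 ± 0.0701 and 0.823 ± 0.184. Both of these ratios overlapped between groups. Against *Gys2*, *Gbe1* and *Ugp2* were lower with ISOGK as well, without overlap between groups. The ratio of *Gbe1* to *Gys2* was 0.622 ± 0.143 with vehicle and 0.369 ± 0.0617 with ISOGK (SD, n = 4 each). That of *Ugp2* to *Gys2* was 2.77 ± 0.474 and 1.33 ± 0.255. These ratios are descriptions and were not tested.

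**Figure D3:**
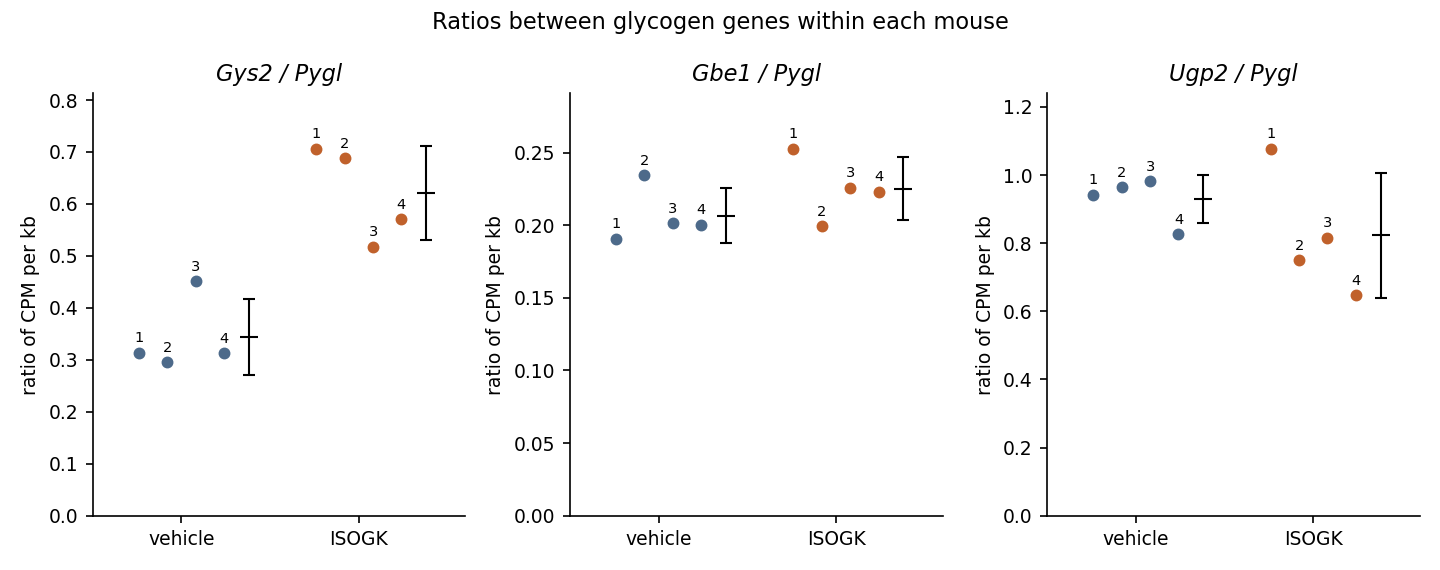
Ratios of CPM per kb of *Gys2*, *Gbe1* and *Ugp2* to *Pygl* in each mouse, numbered by replicate, with the mean and SD of each group of 4. The *Gys2* to *Pygl* ratio lies between 0.296 and 0.452 with vehicle and between 0.518 and 0.707 with ISOGK, and the other ratios overlap.

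*Pygl*, *Ugp2* and *Gbe1* were the members called as lower with ISOGK, and the 250 bases before their transcription starts are shown, from RefSeq on GRCm38.p6. RefSeq windows were found for 6 of the 8 genes, and *Gys2* and *Ppp1r3b* had none in that table. The *Pygl* window is chr12:70227684-70227933 on the minus strand, the *Gbe1* window chr16:70313699-70313948 on the plus strand, and the *Ugp2* window chr11:21371268-21371517 on the minus strand. A further *Ugp2* window lies inside the gene, and the *Ppp1r3g* window lies inside its gene too. For both *Ugp2* windows and the *Phka2* window, the first bases after the RefSeq start matched no GENCODE M21 transcript of the gene. The *Pygl* window lies before the shorter of its coding transcripts, inside an intron of the longer, and it overlaps an exon of *F730035M05Rik*, a non-coding RNA of the opposite strand. Capitals mark GGGCGG (the GC box) and CCAAT on either strand. The search also covered CACGTG (the E-box that ChREBP and clock factors can bind as part of longer elements), TGACGTCA (the cAMP response element) and TATAAA, none of which occurs in these windows.
*Pygl*: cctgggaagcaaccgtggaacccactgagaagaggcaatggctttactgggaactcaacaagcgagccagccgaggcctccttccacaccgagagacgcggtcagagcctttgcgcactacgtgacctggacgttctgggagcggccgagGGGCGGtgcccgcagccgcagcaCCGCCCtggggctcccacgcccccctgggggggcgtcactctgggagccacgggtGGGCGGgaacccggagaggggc
*Ugp2*: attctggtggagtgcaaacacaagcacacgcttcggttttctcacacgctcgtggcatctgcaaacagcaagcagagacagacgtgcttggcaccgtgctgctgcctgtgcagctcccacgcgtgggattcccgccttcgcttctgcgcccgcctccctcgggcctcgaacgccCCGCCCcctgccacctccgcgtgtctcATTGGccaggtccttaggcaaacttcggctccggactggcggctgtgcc
*Gbe1*: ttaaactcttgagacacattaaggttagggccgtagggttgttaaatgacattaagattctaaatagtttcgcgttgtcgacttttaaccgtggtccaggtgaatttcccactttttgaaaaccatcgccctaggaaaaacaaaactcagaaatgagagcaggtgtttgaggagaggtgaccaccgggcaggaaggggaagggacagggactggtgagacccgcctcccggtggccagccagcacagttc
The *Pygl* window holds 3 GC boxes, the *Ugp2* window 1 GC box and 1 CCAAT, and the *Gbe1* window none of the motifs. The further *Ugp2* window holds 2 GC boxes and no CCAAT. Genes that did not pass carry these motifs as well: 2 GC boxes for *Phka2*, 1 GC box and 1 CCAAT for *Ppp1r3g*, and 1 CCAAT for *Ppp1r3c*. Among all 32851 windows of this length, 32.7% hold GGGCGG, 33.8% CCAAT, 6.02% CACGTG, 1.55% TGACGTCA and 12.4% TATAAA. GC content was 69.2% in the *Pygl* window, 64.0% in the *Ugp2* window and 48.8% in the *Gbe1* window, against a median of 52.4% over all windows. CACGTG occurred in the windows of 1 of the 6 genes searched, *Ppp1r3c* (chr19:36736691-36736720, minus strand), shown with its E-box in capitals.
*Ppp1r3c*: gagggaccggttCACGTGatctggctttga
The E-box starts 104 bases before the transcription start of *Ppp1r3c*, a gene that did not pass the test. A match or its absence says nothing about binding in these livers.

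Among other enzymes that handle glycogen, 1 of 11 tested genes fell, 1 rose and 9 did not pass, with a median log2 fold change of 0.06. *Gaa*, the lysosomal glucosidase that degrades glycogen apart from phosphorylase, rose by 0.33 with an edgeR adjusted p of 0.0493, from 81.2 to 102 CPM on average. The call for *Gaa* was lost in 13 of 17 alternatives (adjusted p up to 0.241). *Pgm1*, a phosphoglucomutase that links glucose 1-phosphate to glucose 6-phosphate, was at 0.29 on the log2 scale (edgeR adjusted p = 0.111). The symbols *Pgm1* and *Pgm2* have been exchanged between annotation releases, so which of the mutases this symbol counts is uncertain.

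Upstream of the enzymes, 1 of 14 tested kinase and receptor genes fell and none rose, with a median log2 fold change of 0.03. *Adra1b*, an alpha-adrenergic receptor through which catecholamines start glycogen breakdown, had 16.3 to 25.7 CPM with vehicle and 10.9 to 17.9 CPM with ISOGK. It fell by 0.72 on the log2 scale, with a standard error of 0.18 (edgeR adjusted p = 0.0309), and the call was lost in 7 of 17 alternatives, where the adjusted p reached 0.125. *Prkaca*, the catalytic subunit of protein kinase A, was at 0.31 on the log2 scale (edgeR adjusted p = 0.0546), and *Prkar1a*, a regulatory subunit, had 0.22 (edgeR adjusted p = 0.169).

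Several genes that bring glucose into the pathway were lower with ISOGK. Of 9 tested genes for glucose entry, phosphorylation and release, 3 fell, 0 rose and 6 did not pass, with a median log2 fold change of -0.08. *Slc2a2*, the glucose transporter of hepatocytes, fell by 0.94 on the log2 scale, and *Gckr*, a regulatory protein of hepatocytes, fell by 0.65 (edgeR adjusted p of 0.00783 and 0.00757). *Slc2a2* and *Gckr* passed in all 17 alternatives.

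In the list of the glucose-responsive factor ChREBP and its known targets, 5 of 10 tested genes fell and 0 rose, with a median log2 fold change of -0.50. *Mlxipl*, which codes for ChREBP, fell by 1.12 on the log2 scale, *Pklr*, the liver pyruvate kinase, by 1.28, and *Fasn*, the fatty acid synthase, by 1.06 (edgeR adjusted p of 0.000908, 5.22e-05 and 0.00163). Of 10 fasting-responsive genes, 5 rose and 0 fell, with a median of 0.60. *Fgf21*, a hepatokine, rose by 2.99 on the log2 scale, and *Pdk4*, a kinase that turns off pyruvate dehydrogenase, by 2.16 (edgeR adjusted p of 0.00122 and 0.00547). Both lists, like the glycogen genes, were chosen with earlier results of these data known. Whether these genes and the glycogen genes share a cause was not tested.

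Clock genes differed between the libraries in another way. Of 16 tested core clock and clock output genes 1 fell, *Hlf*, a clock output factor (log2 fold change -0.51, edgeR adjusted p = 0.00607), and 0 rose, with a median of -0.48. The list holds activators, repressors and output factors, and *Tef* was its most abundant gene. The summed level of the list was 372, 417, 430.1 and 379 CPM in vehicle 1 to 4, and 342, 246, 244 and 235 CPM in ISOGK 1 to 4. In this sum ISOGK 1 was nearer to the vehicle libraries than to the other ISOGK libraries. *Hlf* itself had 25.2 CPM in ISOGK 1, 23.9 to 24.4 CPM in ISOGK 2 to 4 and 31.7 to 37.5 CPM with vehicle. For *Npas2*, a clock activator, ISOGK 1 had 2.26 CPM against 6.07 to 10.1 CPM in ISOGK 2 to 4, and for *Ciart*, a clock repressor, 1.82 CPM against 0.264 to 0.452 CPM. In ISOGK 1, *Ugp2* had 216 CPM against 131 to 202 CPM in ISOGK 2 to 4, and *Pygl* 224 against 226 to 276 CPM. *Gbe1* had 62.4 CPM there against 55.7 to 68.9 CPM. Without ISOGK 1, 27 genes of all pathway lists were called in place of 17. In that fit *Npas2* passed as higher (log2 fold change 1.92, edgeR adjusted p = 0.00190) and *Ciart* as lower (-2.65, edgeR adjusted p = 0.00404). With all libraries neither passed (1.63 and -1.62, edgeR adjusted p of 0.0537 and 0.0957). The part of the clock difference in the glycogen results was not tested.

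Markers of other cells were examined in the same libraries. All 12 skeletal muscle markers were highest in vehicle 4, with 22 to 451 counts there and at most 9 counts in any other library, and *Myh4* was the most abundant. Their summed level was 85.9 CPM in vehicle 4 and 0 to 0.623 CPM elsewhere, and the high *Pygm* value came from the same library. *Pygl*, *Ugp2* and *Gbe1* had their lowest vehicle values in vehicle 4, and without that library their log2 fold changes were -0.69, -0.92 and -0.58. The part of the muscle RNA in the glycogen results was not tested. Without vehicle 4 and ISOGK 1, a fit chosen after seeing the data, the log2 fold changes of *Pygl*, *Ugp2* and *Gbe1* were -0.65, -1.02 and -0.59, and all 3 passed (edgeR adjusted p of 0.0220, 0.00918 and 0.0317). It leaves out the ISOGK library whose summed clock genes were nearest to vehicle, so clock difference and treatment cannot be told apart in it.

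ISOGK 4 differed most from the libraries of its own group over all genes. Its pairs with ISOGK 1 to 3 had a chi-square per gene of 84.8 to 99.6, against 33.2 to 66.8 for pairs among ISOGK 1 to 3 and 18.1 to 33.5 for pairs of vehicle libraries. ISOGK 4 also had the lowest *Ugp2* and *Gbe1* values. Without it the log2 fold changes of *Pygl*, *Ugp2* and *Gbe1* were -0.61, -0.71 and -0.49, and all 3 passed (edgeR adjusted p of 0.00880, 0.00892 and 0.0286). What set ISOGK 4 apart was not tested.

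**Figure D4:**
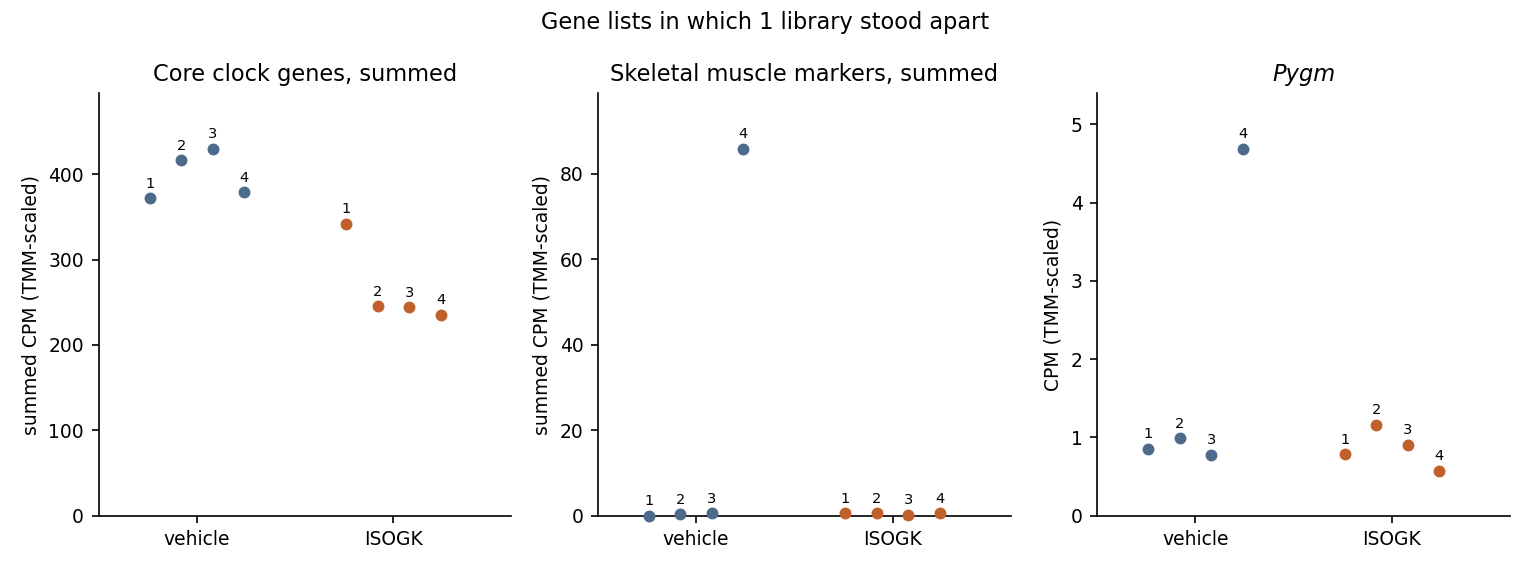
Summed CPM of 16 core clock and clock output genes and of 12 skeletal muscle markers, and CPM of *Pygm*, in each mouse, numbered by replicate. No means are drawn. ISOGK 1 sits near the vehicle libraries in the clock panel, and vehicle 4 stands above all other libraries in the muscle and *Pygm* panels.

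Hepatocyte markers were abundant in every library, with *Alb* the most abundant at 123533 CPM with vehicle and 125411 CPM with ISOGK. The 8 hepatocyte markers summed to 148798 to 162643 CPM with vehicle and 138365 to 185330 CPM with ISOGK, and 0 of 8 passed the test, with a median log2 fold change of 0.11. The highest sum was that of ISOGK 4. *Fgb*, picked after its values were seen, had 16848 CPM in ISOGK 4 against 6707 to 7042 CPM in ISOGK 1 to 3. Of 7 Kupffer cell and macrophage markers 1 fell, *Cd68* (log2 fold change -0.57, edgeR adjusted p = 0.00900), and their sum, led by *Cd5l*, was 1047 to 1244 CPM with vehicle and 837 to 1060 CPM with ISOGK. The median of this list was -0.51. *Cd5l* had 577 to 667 CPM with vehicle and 407 to 560.4 CPM with ISOGK, so the groups did not overlap, but it did not pass (edgeR adjusted p = 0.0639). *Vsig4*, picked after its values were seen, had 5.34 CPM in ISOGK 4 against 75.05 to 94.4 CPM in ISOGK 1 to 3. Of 5 cholangiocyte markers 1 rose, *Sox9* (log2 fold change 0.51, edgeR adjusted p = 0.0494), with a sum of 27.5 to 34.8 and 28.2 to 69.1 CPM led by *Spp1* and a median of 0.61. None of 6 stellate cell markers and none of 5 endothelial markers passed, with medians of -0.13 and -0.06. The stellate cell markers, led by *Dcn*, summed to 268 to 374 CPM with vehicle and 207 to 400.0 CPM with ISOGK, and the endothelial markers, led by *Stab2*, to 247 to 280 and 242 to 283 CPM. Of the adipocyte markers only *Cfd* was in the table, at 2 to 13 counts, too low to be tested. The part of these cell types in the glycogen results was not tested.

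The genes whose levels followed *Pygl* most closely over the 8 libraries were *Tmie*, *Alg11* and *Slc17a4*, with Pearson r of log2 CPM of 0.990, 0.984 and 0.977. They were picked as the highest of all tested genes and the difference between groups enters each r, so these are descriptions without a test. *Tmie* and *Slc17a4* fell with ISOGK, by 0.73 and 1.30 on the log2 scale (edgeR adjusted p of 0.00349 and 0.000989), while *Alg11* had -0.24 (edgeR adjusted p = 0.126).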

How the data were processed

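Liver RNA of 4 mice given vehicle and 4 given ISOGK was sequenced. The authors aligned single-end reads with HISAT2, and the counts they deposited, made with StringTie, are whole numbers for each gene symbol, without normalization. The submitters' processing notes name the build mm10, the same assembly as GRCm38, and the strand setting is not given in the sources used here. Groups came from sample titles, and no sample was left out.

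In R 4.3.3, edgeR 4.0.16 filtered the genes with filterByExpr (minimum count of 10, minimum total of 15), scaled libraries by TMM and ran its quasi-likelihood test with robust estimation. The common biological coefficient of variation was 0.164. Pairs of libraries differed by a chi-square per gene of 18.1 to 33.5 within vehicle and 33.2 to 99.6 within ISOGK, where sampling noise gives about 1. Log2 CPM used a prior count of 2. The genes named were the 8 glycogen genes, their isoforms and subunits, up to 3 genes of each pathway list with the smallest adjusted p, the most abundant marker and any changed marker of each list, and the 3 genes most like *Pygl*. Of the genes this rule picks, 3 are not reported here. Members and lists were chosen with earlier results of these data known. GC box, CCAAT and TATAAA motifs were chosen after CACGTG and TGACGTCA. A planned search for the docking pattern of protein phosphatase 1 was not run, since no protein table was at hand. The 17 alternatives were DESeq2 1.42.0, limma-voom (limma 3.58.1), size factors of DESeq2, scaling by library size only, other filters, no robust estimation, a block for replicate number, each library left out, and vehicle 4 and ISOGK 1 left out together, which was added after seeing the data. The methods were tried on simulated counts first. Read counts without molecular identifiers give precision for counting error only.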

Additional observations from a re-analysis of the deposited data

Results flagged for a closer look

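In groups of 4 libraries, a single library lay far from the other 3, by the gap to its neighbour over the range of the group, for 5 of 64 groups examined (32 named genes in each treatment group), and chance gives about 1 in 20. *Ppp1r3g* had 1.01 CPM in vehicle 3 against 0.0893 to 0.237 in the other vehicle libraries, and 5.91 CPM in ISOGK 2 against 0.283 to 0.883 in the other ISOGK libraries. *Pygm* had 4.69 CPM in vehicle 4 against 0.779 to 0.989. *Gys1* had 4.51 CPM in ISOGK 4 against 1.81 to 2.27. *Ciart* had 1.82 CPM in ISOGK 1 against 0.264 to 0.452. Vehicle 4 is the library with the skeletal muscle markers, and ISOGK 1 the library whose summed clock genes were near the vehicle level. What set any of these values apart was not tested.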

How the results depend on the processing

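*Pygl*, *Ugp2* and *Gbe1* kept their direction and passed in all 17 alternatives, with adjusted p of up to 0.0220, 0.0323 and 0.0497. *Gys2*, *Phka2*, *Ppp1r3c* and *Ppp1r3g* passed in none that gave a value. With at least 10 counts in every library *Ppp1r3g* could not be tested. *Ppp1r3b* passed only in the Wald test of DESeq2 (-0.74). That test called 1405 genes in place of 929, and 27 genes of the pathway lists in place of 17. With a library left out in turn, 379 to 1235 genes of the table, 12 to 27 genes of the pathway lists and 3 glycogen genes were called. Without vehicle 4 and ISOGK 1 together, the log2 fold changes of *Ppp1r3c* and *Pygm* turned to 0.0105 and 0.00994. With library size alone those of *Ppp1cb* and *Pygb* turned to -0.0391 and -0.0119. For *Gys1* the fits that left out a library ran from -0.0480 (without ISOGK 4) to 0.48. None of these reversed values passed, and the cause was not tested.

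Libraries with the same replicate number did not deviate together (correlations of deviations of 0.013, -0.014, 0.075 and 0.085), so the numbers were not taken as pairs. With the replicate number as a block 827 genes were called, among them 3 glycogen genes, with log2 fold changes of -0.65, -0.85 and -0.53 for *Pygl*, *Ugp2* and *Gbe1*.

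With 4 mice a group, differences of the size seen for *Gys2* and *Phka2* could not be resolved. *Ppp1r3g* had as few as 2 counts per library, where depth limits any statement. RNA levels were measured, and glycogen, enzyme activity and phosphorylation were not analysed here.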
